A study of Mus musculus with 28 samples.

Results

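The genes described here are 59 genes of cell division and DNA replication, measured as transcripts in the postnatal cerebellum of trisomic Ts1Cje mice and of their euploid controls. They were chosen by function, as a list of names, and comprised 22 replication genes (the Mcm helicase subunits, the clamp Pcna, polymerases, clamp loader subunits and enzymes of nucleotide supply), 12 regulators of G1 and of entry into S phase (cyclins D and E, their kinases, E2f1 and kinase inhibitors) and 25 mitotic genes (mitotic cyclins and kinases, spindle checkpoint, kinesin and centromere genes, Top2a and Mki67). Names were matched to the array's symbols, current or older, which placed 58 of the 59 among 23219 genes and unnamed probes; Ccnb1 had no probe. Cdk1 stood on the array under the older symbol Cdc2a and Cdc45 under Cdc45l. Tyms, Cdk2 and Cdk6 had 2 probes each, which were averaged.

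Ts1Cje mice carry 3 copies of the distal part of mouse chromosome 16, from Sod1 to Znf295, translocated onto chromosome 12, of which a small distal segment is lost. Mcm4, Cdc45 and Rfc4 lie on chromosome 16 but proximal to Sod1, so no member lies in the trisomic segment. The mice, labelled as strain B6EiC3SnF1/J A/a in both genotypes (the methods of the study name a B6C3SnF1/Orl mixed background), were killed at birth (P0) or 3, 7 or 10 days later (P3, P7, P10). Each genotype had 8 mice at P3 as at P7 and 6 at the youngest and oldest stages, and RNA was prepared from individual whole cerebella. Each of 28 two-colour spotted arrays held 1 Ts1Cje and 1 euploid mouse, of opposite sex by the series record. Sex was not modelled here, so a difference of sex within an array is not separated from its ratio. On 16 same-stage arrays, 4 per stage, the array gave the Ts1Cje minus euploid log2 ratio, and on 12 cross-stage arrays, 4 for each step between successive stages, it gave the older minus younger log2 ratio, with the Ts1Cje mouse the older on 6 of them. In the name of an array the Ts1Cje stage stands before the slash and the euploid stage after it, so that on P7/P3 the Ts1Cje mouse was 4 days the older.

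In the mouse cerebellum most cell division takes place after birth, in the external granule layer, where granule cell precursors multiply in response to Sonic hedgehog secreted by Purkinje cells before they leave the cycle and migrate inward. D-type cyclins with Cdk4 and Cdk6 carry a cell through G1, E-type cyclins with Cdk2 open S phase, and the E2F transcription factors then switch on the replication genes. The mitotic genes follow later in the cycle, many of them through a promoter element called CHR. The study measured proliferation by Ki67 staining, the protein product of Mki67, in the external granule layer, so the question for these arrays is whether transcripts of the cycle differ with trisomy and with age in the whole cerebellum.

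The promoters of the members differed by role in a way that was not used to list them. Promoter sequences, 250 bases before to 50 after the start of the gene, were taken from RefSeq (GRCm38.p6), which matched 49 of the 59; Mcm4, Gmnn, Pole, Ccne2, Ccnd1, Ccnd2, Ccna2, Cdc25c, Aurkb and Kif20a had no entry. An E2F site, searched as TTTCCCGC or TTTGGCGC on both strands, was present in 9 of 19 replication promoters (47.4%), 1 of 9 G1 promoters and 0 of 21 mitotic promoters, against 1.63% of 27025 mouse promoters. The CHR, searched as TTTGAA on both strands, was present in 13 of 21 mitotic promoters (61.9%), 3 of 19 replication promoters and 0 of 9 G1 promoters, against 18.1% of all. The CCAAT box, searched as CCAAT on both strands, was present in 17 of 21 mitotic promoters (81.0%), 11 of 19 replication promoters and 2 of 9 G1 promoters, against 37.9% of all. A match is a string of letters and not a site shown to bind. None of these motifs shares letters with another in the sequences printed here.

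Some of these promoters are printed, a pair from replication genes and a pair from mitotic genes, because the values of these genes are given later. They are Mcm7 (chr5:138171834-138172133, minus strand), Pcna (chr2:132253131-132253430, minus strand), Plk1 (chr7:122159185-122159484, plus strand) and Mki67 (chr7:135716330-135716629, minus strand). Each is written 5′ to 3′ on the strand of the gene, and capitals mark matches to the E2F site, the CHR or the CCAAT box in either orientation. Mcm7 held 1 E2F site and 3 CCAAT boxes, Pcna 1 CCAAT box, Plk1 1 CHR and 1 CCAAT box, and Mki67 2 CHR and 3 CCAAT boxes.
Mcm7: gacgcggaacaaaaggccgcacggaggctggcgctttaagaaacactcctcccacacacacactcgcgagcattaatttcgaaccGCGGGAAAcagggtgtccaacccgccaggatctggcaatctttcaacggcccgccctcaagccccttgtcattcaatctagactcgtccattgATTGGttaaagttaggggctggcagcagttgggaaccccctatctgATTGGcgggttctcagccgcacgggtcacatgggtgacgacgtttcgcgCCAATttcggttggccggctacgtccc
Pcna: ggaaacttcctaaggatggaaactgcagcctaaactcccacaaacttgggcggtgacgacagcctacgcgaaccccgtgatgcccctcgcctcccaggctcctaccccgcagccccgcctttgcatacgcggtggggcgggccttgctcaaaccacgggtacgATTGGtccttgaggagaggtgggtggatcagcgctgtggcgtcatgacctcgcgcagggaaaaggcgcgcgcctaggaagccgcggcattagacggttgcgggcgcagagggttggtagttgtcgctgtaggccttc
Plk1: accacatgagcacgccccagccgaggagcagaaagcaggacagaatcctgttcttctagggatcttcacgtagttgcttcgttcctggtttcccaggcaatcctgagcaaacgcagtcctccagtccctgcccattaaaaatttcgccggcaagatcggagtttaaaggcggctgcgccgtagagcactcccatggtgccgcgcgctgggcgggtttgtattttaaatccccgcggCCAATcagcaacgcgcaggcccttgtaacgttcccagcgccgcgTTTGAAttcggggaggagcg
Mki67: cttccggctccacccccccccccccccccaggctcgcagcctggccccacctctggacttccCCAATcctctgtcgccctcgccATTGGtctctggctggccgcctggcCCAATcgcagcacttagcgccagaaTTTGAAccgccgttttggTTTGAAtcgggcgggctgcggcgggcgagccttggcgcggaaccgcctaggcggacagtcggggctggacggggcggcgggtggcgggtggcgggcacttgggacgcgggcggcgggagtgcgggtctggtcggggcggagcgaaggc

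The arrays held 11185 to 23732 values each, and 22225 genes and unnamed probes had enough values to be tested, among them all 58 members with a probe. The members were measured on 16 to 28 arrays (median 26.0), Mcm4 on the fewest. P10/P7 replicate 2, P10/P10 replicate 4 and P0/P0 replicate 1 had the fewest values, and the first and second of these gave values for only 26 and 31 members. Sod1, a gene of the trisomic segment, was above 0 in Ts1Cje minus euploid on 26 of 28 arrays. Among markers fixed as lists, 12 of 14 of granule cell precursors, 13 of 15 of granule neurons and 13 of 14 of Purkinje cells gave values above background often enough to be tested. A test across all arrays is called here when its Benjamini-Hochberg adjusted p over the 22225 was below 0.05 in limma, and members below an unadjusted p of 0.05, the threshold of the study, are counted beside it. The standard error of a member's log2 ratio had a median of 0.149 for the trisomy effect averaged over the 4 stages, 0.316 to 0.348 at a single stage and 0.37 to 0.398 for a step in age. It was smallest for Pcna and, in most contrasts, largest for Mcm5.

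With age, 2 members changed past the threshold, both between P3 and P7 and both downward. They were Ccnd1, cyclin D1, the G1 cyclin that granule cell precursors make in response to Sonic hedgehog, and Pcna, the sliding clamp of the replication fork. They made up 2 of 58 members, against 1.26% of all genes and unnamed probes called in either direction at this step and 0.414% called lower. In whole-cerebellum RNA, fewer cells of a type and less RNA per cell cannot be told apart.

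Ccnd1 gave older minus younger log2 ratios of -1.22 and -2.01 on P3/P7 replicates 1 and 2 and of -4.34 and -2.25 on P7/P3 replicates 1 and 2. All 4 arrays were below every array of the steps before and after. The fitted P7 level was 0.182-fold that of P3 (95% interval 0.107 to 0.31, log2 ratio -2.45 ± 0.371 SE, adjusted p = 0.00204). From P0 to P3 the arrays gave 0.35, 0.21, 0.73 and 1.06, a fitted log2 ratio of 0.59 ± 0.371 (adjusted p = 0.834). From P7 to P10 they gave -0.51, -0.27, 0.27 and -0.53, a fitted log2 ratio of -0.26 ± 0.371 (adjusted p = 0.949). The called fall of Ccnd1 lay between P3 and P7, and the neighbouring steps were not called. From P0 to P3 all 4 arrays were above 0, and the 95% interval of the ratio was 0.884 to 2.56. A rise before the fall was therefore neither called nor excluded.

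Pcna gave -0.80 and -0.62 on the P3/P7 arrays and -0.82 and -0.90 on the P7/P3 arrays, a fitted log2 ratio of -0.78 ± 0.153 (0.58-fold, 95% interval 0.466 to 0.724, adjusted p = 0.0112). From P7 to P10 the 3 arrays with a value gave -0.76, -0.96 and -0.69, with a fitted log2 ratio of -0.83 ± 0.18 (0.562-fold, 95% interval 0.434 to 0.727, adjusted p = 0.153). From P0 to P3 they gave 0.84, 0.18, -0.28 and 0.10, on both sides of 0. All 7 values after P3 were thus below all 4 before it, and over the whole span from P0 to P10 the fitted level ended at 0.377-fold (95% interval 0.251 to 0.565, adjusted p = 0.0907).

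Ccnd2, cyclin D2, the other D cyclin of granule cell precursors, had the sign of Ccnd1 from P0 to P3 but not its fall from P3 to P7. The genes were not tested against each other, and no step of Ccnd2 was called. From P0 to P3 its arrays gave 0.44, 1.14, 0.67 and 1.03, all above 0, with a fitted log2 ratio of 0.82 ± 0.175 (1.77-fold, 95% interval 1.38 to 2.27, adjusted p = 0.0844). From P3 to P7, the step at which Ccnd1 fell, they gave -0.52, -0.35, 0.15 and 0.11. From P7 to P10 the 3 arrays with a value gave -0.77, -0.75 and -0.47, with a fitted log2 ratio of -0.67 ± 0.205 (0.627-fold, adjusted p = 0.295). Its fitted change over the whole span was 0.00 ± 0.322.

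Whether the change with age differed between the 3 steps was tested in the same fit, a test added after the values were seen. The test was called for Ccnd1 (adjusted p = 0.0254), Ccnd2 (adjusted p = 0.0274) and Pcna (adjusted p = 0.0433), 3 of 58 members against 0.387% of all genes and unnamed probes, and 14 members were below an unadjusted p of 0.05 against 12.5% of all. Next in order came Top2a, Fen1, Bub1, Cdt1 and Plk1, with adjusted p from 0.207 to 0.282. These calls rest on 4 arrays per step, and the call of Pcna between P3 and P7 was lost without any 1 of the 4 arrays of that step (highest adjusted p 0.0773), while that of Ccnd1 was kept in each case. With the 19 arrays titled ATJ alone Ccnd1 was still called between P3 and P7, Pcna was not (log2 ratio -0.74, adjusted p = 0.28) and no member was called for a difference between steps. The count called for such a difference was also 0 with arrays scaled to the same spread, and 0 to 3 with 1 array left out.

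**Figure D1:**
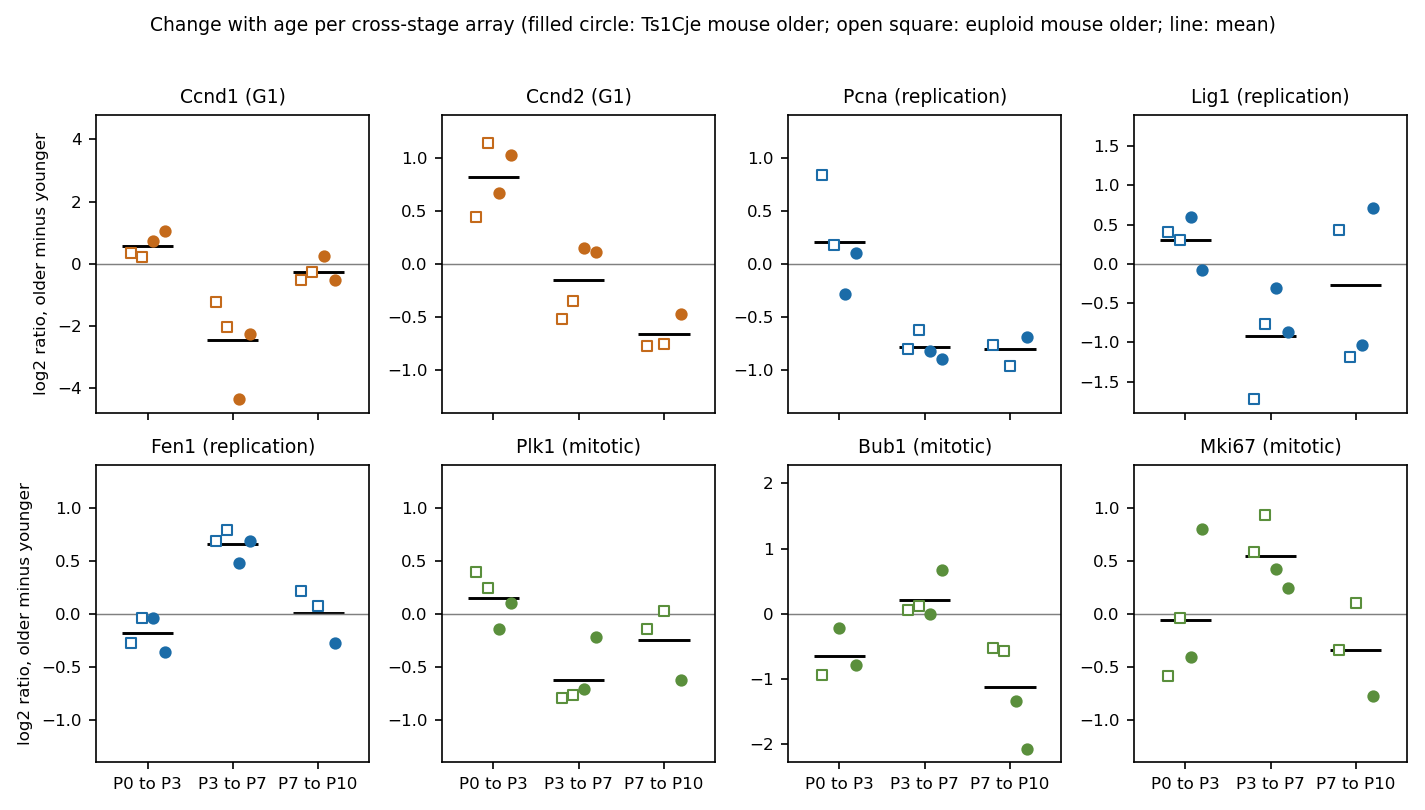
Older minus younger log2 ratio of 8 members on each cross-stage array (y axis), by step in age (x axis), with filled circles where the Ts1Cje mouse was the older, open squares where the euploid mouse was, and a line at the mean. Ccnd1 lies between -4.34 and -1.22 from P3 to P7, and Pcna lies between -0.96 and -0.62 at both later steps; the y scales differ between panels.

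One P7/P7 array, replicate 4, has a euploid mouse labelled P7 in one field and P3 in another, and was taken as P7. On this array Ccnd1 was at 0.05 and Pcna at -0.12, beside -4.34 to -1.22 for Ccnd1 and -0.90 to -0.62 for Pcna on the 4 arrays that compared P7 with P3. Taken as P3, the array ended both calls (Ccnd1 -1.93, adjusted p = 0.0757; Pcna -0.64, adjusted p = 0.133), and left out, it ended neither, although Pcna was then no longer called for a difference between steps.

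Beside Pcna, no replication member was called between P3 and P7, and those with the smallest p lay on both sides of 0. Fen1, the flap endonuclease that trims Okazaki fragments, and Lig1, the ligase that joins them, both work on the Pcna clamp. Fen1 was at 0.69, 0.79, 0.48 and 0.69 on the 4 arrays, all above 0, with a fitted log2 ratio of 0.66 ± 0.177 (1.58-fold, adjusted p = 0.0698). Lig1 was at -1.72, -0.77, -0.31 and -0.87, all below 0, with a fitted log2 ratio of -0.92 ± 0.317 (0.53-fold, adjusted p = 0.174). Their values at this step do not overlap, and neither passed the threshold.

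Of the helicase subunits, Mcm7 was at -1.08, -0.60, -0.60 and -0.28 between P3 and P7 (fitted -0.64 ± 0.306, adjusted p = 0.385), and Mcm2 at -0.06, -0.32, -0.72 and 0.20 (fitted -0.22 ± 0.217, adjusted p = 0.762). Leaving out the 3 arrays with the fewest values, a choice made after seeing the data, called 5 members at this step: Ccnd1, Pcna, Fen1, Mcm7 and Plk1. Cdt1, which loads the helicase, had a fitted log2 ratio of 1.52 ± 0.594 between P7 and P10 (adjusted p = 0.42), which rested on P10/P7 replicate 1 at 3.72 beside -0.04 and 0.49 on the P7/P10 arrays. Over the 22 replication members the median fitted log2 ratio was 0.02 from P0 to P3, -0.17 from P3 to P7, -0.23 from P7 to P10 and -0.43 over the whole span, where the median of all genes and unnamed probes was 0.02. Over the span 16 of 22 were below 0, against 48.9% of all genes and unnamed probes.

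Among the G1 regulators the median was 0.22, -0.15 and 0.01 at the 3 steps and -0.15 over the whole span, with Ccnd1 the member that lay lowest. Cdkn1b (p27) and Cdkn2c (p18), kinase inhibitors that hold cells in G1, varied between arrays by more than their fitted changes. Cdkn1b ranged from -0.78 to 2.95 over the 10 cross-stage arrays with a value and had a fitted log2 ratio of 0.48 ± 0.82 from P0 to P10. Cdkn2c ranged from -1.54 to 2.15 over 12 arrays and had a fitted log2 ratio of 0.01 ± 0.665. The 4 arrays of Cdkn2c were all above 0 from P0 to P3 and all below it from P3 to P7 (-1.54 to -0.24), with adjusted p of 0.785 and 0.437. A change of either over the span was not detectable at this precision.

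The mitotic members were not lower as a group at the step where Ccnd1 and Pcna fell. Their median fitted log2 ratio was 0.14 from P0 to P3, 0.01 from P3 to P7 and -0.22 from P7 to P10, and 0.11 over the whole span, with 16 of 24 above 0. Of all genes and unnamed probes, 48.9% were below 0 over the span. Mki67, the gene of the Ki67 antigen of dividing cells, gave 0.58, 0.93, 0.42 and 0.24 between P3 and P7, all above 0, a fitted log2 ratio of 0.54 ± 0.205 (1.46-fold, adjusted p = 0.226). It gave -0.59, -0.04, -0.41 and 0.80 at the step before, and from P0 to P10 its fitted log2 ratio was 0.10 ± 0.377. Plk1, the kinase that drives mitotic entry and spindle assembly, gave -0.79, -0.76, -0.71 and -0.22 between P3 and P7, all below 0 and opposite in sign to Mki67 (fitted -0.62 ± 0.173, 0.651-fold, adjusted p = 0.0824).

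Cdk1, the mitotic kinase, had a fitted log2 ratio of 0.44 ± 0.205 between P3 and P7 (adjusted p = 0.367). Its partner Ccna2, cyclin A2, was at 0.86 ± 0.396 between P0 and P3 (adjusted p = 0.672) and at -0.26 ± 0.338 between P3 and P7. Top2a, the topoisomerase that untangles sister chromatids, gave 0.22, 1.62, 0.29 and 0.10 between P0 and P3, all above 0 but with 1 array far from the others (fitted 0.56 ± 0.188, adjusted p = 0.456). Cenpe, a kinesin of the kinetochore, was at 0.62 ± 0.279 at that step (adjusted p = 0.658), and Kif23, a kinesin of the midbody, at 1.28 ± 0.488 between P3 and P7 (adjusted p = 0.226), the last drawn up by P3/P7 replicate 1 at 3.32.

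Between P7 and P10, Bub1, a kinase of the spindle checkpoint, gave -0.52, -0.57, -1.33 and -2.07, all below 0 (fitted -1.12 ± 0.283, 0.46-fold, adjusted p = 0.185). Cdc20, the activator of the anaphase-promoting complex, gave 0.16, 0.34, 0.23 and 5.53, so that its fitted log2 ratio of 1.57 ± 0.48 came from P10/P7 replicate 2, the array with the fewest values, and was 0.24 without the 3 such arrays. The same array held Pttg1, securin, at -3.10 beside -0.37, -0.20 and -1.29 (fitted -1.24 ± 0.478, adjusted p = 0.417, and -0.60 without those arrays). Over the whole span the mitotic members below an unadjusted p of 0.05 were Bub1 at -1.56 ± 0.52, Plk1 at -0.70 ± 0.318 and Cdc20 at 1.94 ± 0.831. At that threshold there were 6 of 58 members from P0 to P3 (background 7.25%), 10 from P3 to P7 (12.9%), 7 from P7 to P10 (9.09%) and 5 from P0 to P10 (8.05%), 5, 5, 2 and 1 of them upward. No member was called from P0 to P3 (0.036% of all were), from P7 to P10 (0.0045%) or from P0 to P10 (0.045%), and in ANOVA without moderated variances 1 was called at each of these, Ccnd2 at the first and Pcna at the others.

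No array set euploid mice against each other, so change with age in euploid mice was estimated from the same fit to all 28 arrays. No member was called for it from P0 to P3, P7 or P10. Of all genes and unnamed probes, 0.0045%, 0.0135% and 0.018% were called. At an unadjusted p below 0.05 there were 3, 4 and 4 of 58 members, against 6.11%, 6.45% and 6.92% of all genes and unnamed probes. ANOVA without moderated variances called Pcna from P0 to P10. Relative to P0, euploid Pcna was at -0.64 ± 0.236 at P7 and -1.39 ± 0.295 at P10, and Ccnd1 at -1.76 ± 0.571 and -2.16 ± 0.686, none of them called. At P3 euploid Ccnd2 was at 0.74 ± 0.211 and Top2a at 0.57 ± 0.227, with Bub1 at -0.89 ± 0.389.

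**Figure D2:**
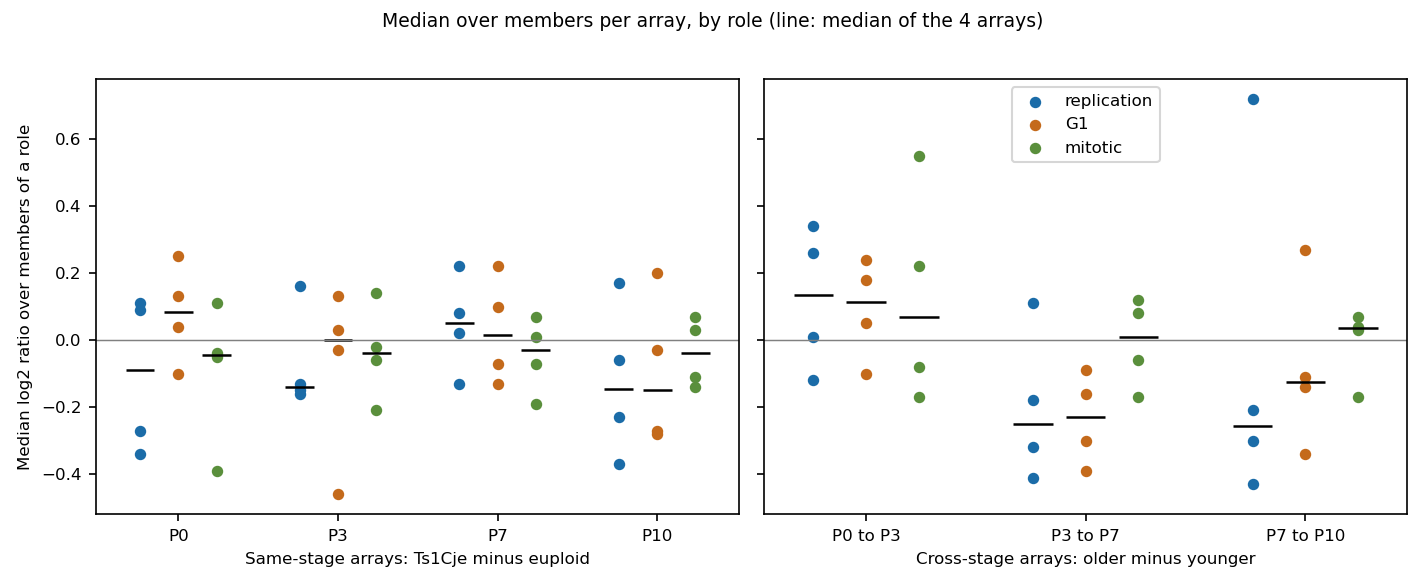
Median log2 ratio over the members of each role on each array (y axis), by stage for the same-stage arrays (left, Ts1Cje minus euploid) and by step for the cross-stage arrays (right, older minus younger), with a line at the median of the 4 arrays. The medians of G1 members lie below 0 on all 4 arrays from P3 to P7, between -0.39 and -0.09, and those of replication members on 3 of 4, while the mitotic medians and all same-stage medians lie on both sides of 0.

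Other genes of the same processes, listed by function with earlier results of these data known, gave no calls at the steps from P3 to P7 and from P7 to P10. The counts that follow are at an unadjusted p below 0.05, which 12.9% and 9.09% of all genes and unnamed probes passed at these steps. Of 34 further replication genes, 2 were higher and 0 lower between P3 and P7, with Uhrf1 at 0.55 ± 0.18 and Dnmt1 at 0.34 ± 0.15, both of which copy DNA methylation at the fork. Between P7 and P10, 0 were higher and 2 lower, with the primase subunit Prim2 at -1.09 ± 0.299 (adjusted p = 0.228) and Tipin at -0.52 ± 0.207. Of 53 further mitotic genes, 4 were higher and 8 lower between P3 and P7 and 2 were higher and 7 lower between P7 and P10, where Nuf2, of the outer kinetochore, was at -1.28 ± 0.272 (adjusted p = 0.153). Nuf2, at 0.86 ± 0.231 from P0 to P3, was the 1 gene of these lists called for a difference between steps (adjusted p = 0.0254). Of 32 further G1 and checkpoint genes, 0 were higher and 1 lower between P3 and P7, the checkpoint kinase Chek1 at -1.16 ± 0.412 (adjusted p = 0.184).

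Some markers of several cell types were called at the step at which Ccnd1 and Pcna fell. Of all genes and unnamed probes, 0.846% were called higher and 0.414% lower at this step, and 50.5% were below 0. Of 12 markers of granule cell precursors tested, Cxcr4 was called lower (-1.06 ± 0.181, adjusted p = 0.00611) and none higher, with a list median of 0.11, and Atoh1, the factor that defines these cells, was at 0.37 ± 0.177 (adjusted p = 0.379). Neurod1, of differentiating granule neurons, was called higher (0.97 ± 0.173, adjusted p = 0.00799), 1 of 13 on that list. Of 9 endothelial markers 8 were below 0 and 2 were called lower, Esam (-0.73 ± 0.173) and Pecam1 (-1.13 ± 0.281), with a list median of -0.41. Of 13 astrocyte and Bergmann glia markers Aqp4 and Gfap were called higher and Vim lower. Of 13 Purkinje cell markers Slc1a6 was called higher (0.77 ± 0.146, adjusted p = 0.00999) and Foxp2 lower (-1.89 ± 0.369, adjusted p = 0.0112), with a list median of 0.07, and of 11 markers of the oligodendrocyte lineage Mbp was called higher (2.50 ± 0.466, adjusted p = 0.00999). The part of these shifts in the falls of Ccnd1 and Pcna was not tested.

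With trisomy, no member was called by limma in the mean over the 4 stages, at P0, P3, P7 or P10, or for a difference between stages, and no member was called in ANOVA without moderated variances either. Of all genes and unnamed probes, 0.018% were called in the mean, 0.0045% at P3 and 0% at P0, P7, P10 and between stages. At an unadjusted p below 0.05 there were 2 members in the mean (background 4.08%), 1 at P0 (4.43%), 3 at P3 (5.61%), 0 at P7 (1.73%), 5 at P10 (5.21%) and 1 between stages (3.08%). The median member was at a log2 ratio of -0.05 in the mean, where the median of all was 0. Below 0 were 37 of 58 members, against 50.6% of all genes and unnamed probes. By role the medians were -0.04 for replication, -0.04 for G1 and -0.06 for mitotic members.

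The precision of the arrays bounded most of these effects. For the mean over the 4 stages the 95% interval lay wholly within a 1.5-fold change in either direction for 42 of 58 members and within a 2-fold change for 57, Mcm5 being the exception. At P0 alone the interval lay within a 1.5-fold change for 8 members, Pcna, Rrm1, Tyms, Pold1, Fen1, Ccnd2, Plk1 and Ube2c, and within a 2-fold change for 34. The interval lay within a 1.5-fold change for 11 members at P3, 12 at P7 and 10 at P10. At a single stage the intervals of most members thus reached beyond a 1.5-fold change. The interval of Tyms is for the mean of 2 probes, which had the same sign on only 15 of 26 arrays.

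**Figure D3:**
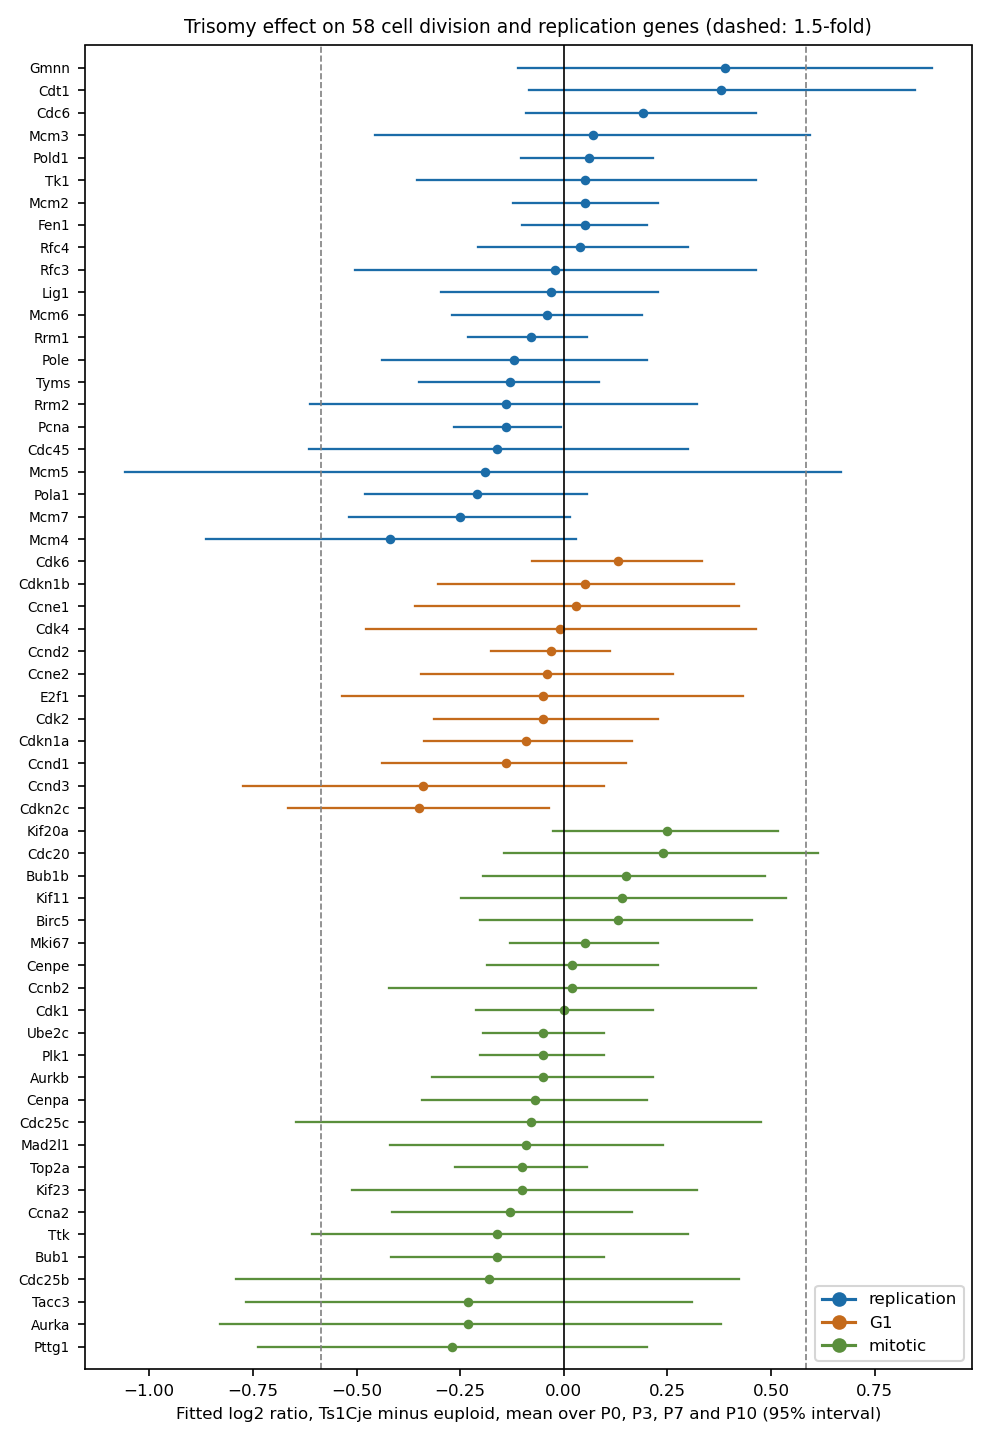
Fitted Ts1Cje minus euploid log2 ratio of the 58 members tested, averaged over the 4 stages (x axis), with 95% intervals, ordered by value within each role (y axis); dashed lines mark a 1.5-fold change. The intervals of Pcna and Cdkn2c alone exclude 0, both below it, and 42 intervals lie within the dashed lines.

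The members below an unadjusted p of 0.05 in the mean were Cdkn2c and Pcna, both lower in Ts1Cje. Pcna was below 0 on 12 of the 15 same-stage arrays with a value, over a range of -0.59 to 0.06 with a median of -0.13. Its fitted ratio was 0.91-fold (95% interval 0.832 to 0.996, log2 ratio -0.14 ± 0.0626, unadjusted p = 0.0412, adjusted p = 0.993). Cdkn2c was below 0 on 9 of 15, over a range of -1.50 to 1.37, with a fitted ratio of 0.784-fold (95% interval 0.631 to 0.975, unadjusted p = 0.0305, adjusted p = 0.993). Neither difference survived adjustment over all genes. Similar sign counts occurred in members above the unadjusted threshold. Cdc6 and Cdk2 were each above 0 on 12 of 15 same-stage arrays, and Mcm7 was below 0 on 11 of 14.

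For Mki67 the same-stage arrays ranged from -0.23 to 0.71 with a median of 0.11, and 10 of 14 were above 0. At P0 its 3 values were -0.08, 0.19 and 0.42, at P3 0.06, 0.67, 0.71 and 0.20, at P7 0.31, 0.03, -0.23 and -0.16, and at P10 -0.16, 0.01 and 0.16. All 4 arrays at P3 were above 0 and those of the other stages lay on both sides of it. The fitted ratio was 1.04-fold in the mean (95% interval 0.914 to 1.17), 1.14-fold at P0 (0.841 to 1.54) and 1.22-fold at P3 (0.951 to 1.57, adjusted p = 0.886).

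Ccna2 was below 0 on 10 of 15 same-stage arrays. At P0 its 3 values were -0.37, -0.59 and -0.57, at P3 0.31, 1.51, -0.01 and 0.06, at P7 -0.07, -2.01, 0.32 and -0.26, and at P10 -0.87, -0.53, -0.11 and 0.07. All values at P0 were thus below 0, but the fit over all arrays, which also takes in the cross-stage arrays, put the P0 ratio at 0.849-fold with an interval of 0.508 to 1.42 (adjusted p = 1). In the mean it was 0.915-fold (95% interval 0.75 to 1.12).

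The other members always followed stood close to 1 in the mean over the stages. Cdk1 was at a log2 ratio of 0.00 (95% interval of the ratio 0.864 to 1.16). Mcm2 was at 1.04-fold (0.919 to 1.17), Ccnd2 at 0.978-fold (0.886 to 1.08) and Top2a at 0.931-fold (0.834 to 1.04). Ccnd1 was at 0.905-fold (0.738 to 1.11) and Cdkn1b at 1.04-fold (0.81 to 1.33). Each interval included 1.

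At single stages the members below an unadjusted p of 0.05 were mostly genes with few or scattered values. At P0 this was Mcm5, a helicase subunit, at -1.89, -1.16 and -5.18 on the 3 arrays with a value (fitted -1.98 ± 0.93, adjusted p = 1). At P3 it was Mcm4, another helicase subunit, at -1.46 and 0.03 on 2 arrays (fitted -1.06 ± 0.411, adjusted p = 0.846), the kinesin Kif20a (0.58 ± 0.269) and Plk1. Kif20a ran from -0.39 to 0.83 on the 4 P3 arrays, 2 above and 2 below 0. Their mean was 0.12, below the fitted value, which also takes in the cross-stage arrays. Plk1 was at -0.13, -0.62, -0.50 and -0.41 on the 4 P3 arrays, all below 0, with a fitted log2 ratio of -0.31 ± 0.146 (0.808-fold, adjusted p = 0.875), and at the other stages it lay on both sides of 0.

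At P10 the members were Mcm7 (fitted -0.93 ± 0.323), Tyms, the thymidylate synthase (-0.69 ± 0.246), Ccnd3, cyclin D3 (-1.14 ± 0.502) and Ccnb2, cyclin B2 (-1.21 ± 0.497), all lower in Ts1Cje, and Bub1b, of the spindle checkpoint, which was higher (1.03 ± 0.464), each with an adjusted p of 0.942. The 4 lower ones shared an array. P10/P10 replicate 4 was at -2.91 for Mcm7, -2.47 for Tyms, -5.49 for Ccnd3 and -4.00 for Ccnb2. The other P10 arrays were at -0.02 and -0.25 for Mcm7, at -0.18, -0.05 and -0.30 for Tyms, at 0.20, 0.18 and -0.06 for Ccnd3 and at -0.25, 0.36 and -1.64 for Ccnb2. Without the 3 arrays with the fewest values, of which this is 1, the fitted log2 ratios were -0.17, -0.19, 0.07 and -0.43, and that of Bub1b was 1.03. Bub1b had a value on only 2 P10/P10 arrays, at 0.20 and 1.91. Its fitted log2 ratio ran from 0.47 to 1.56 with 1 array left out. The member counted above for a difference between stages was Ccnb2 (adjusted p = 1).

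**Figure D4:**
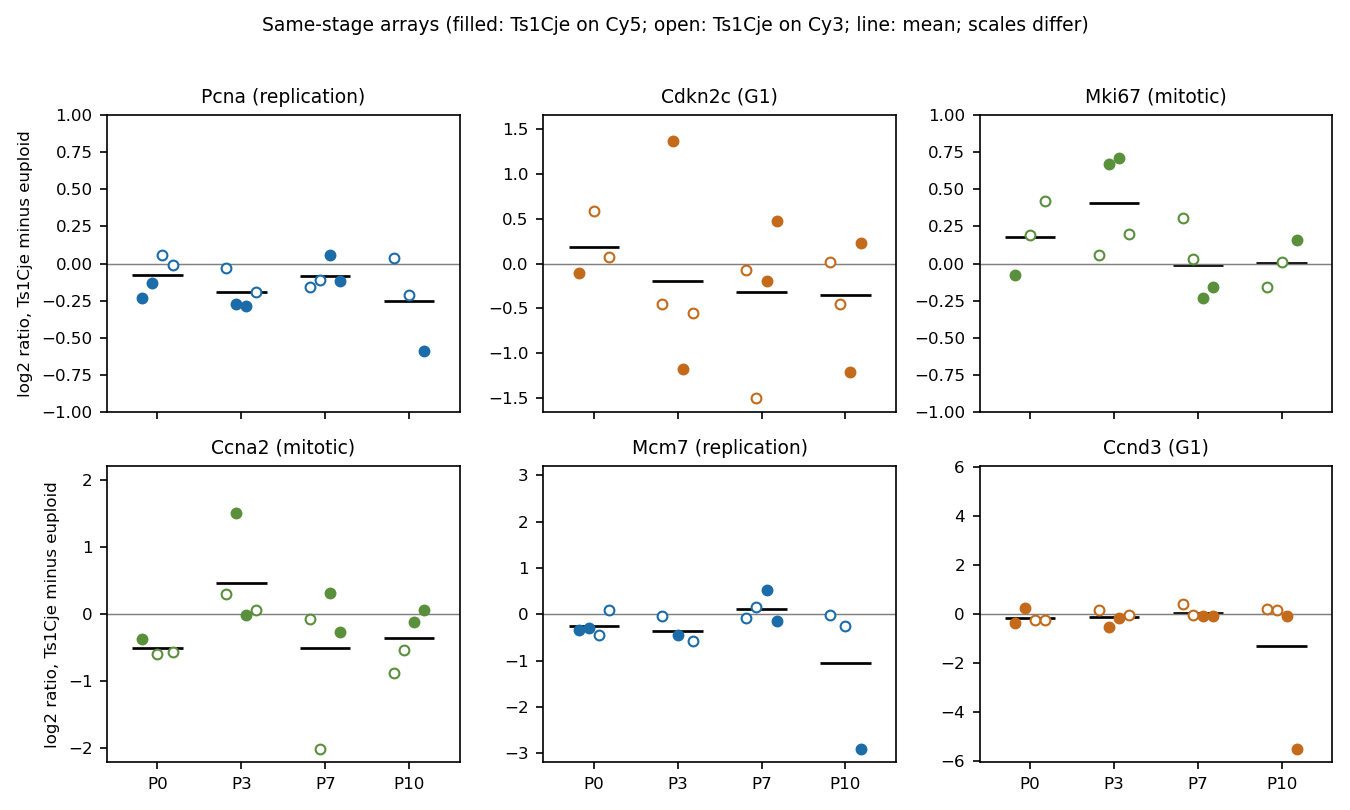
Ts1Cje minus euploid log2 ratio of 6 members on each same-stage array (y axis), by stage (x axis), with filled points where the Ts1Cje mouse was labelled with Cy5, open points where it was labelled with Cy3, and a line at the mean; the y scales differ. Pcna is below 0 on 12 of 15 arrays, and at P10 Mcm7 and Ccnd3 have 1 array at -2.91 and -5.49 apart from the others.

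Among further genes of these processes, 0 of 34 replication genes and 0 of 32 G1 and checkpoint genes were below an unadjusted p of 0.05 for trisomy in the mean, where 4.08% of all genes and unnamed probes were. Of 53 further mitotic genes 1 was higher and 4 were lower, among them Ndc80 (-0.30 ± 0.0945) and Nuf2 (-0.29 ± 0.0946), subunits of the same kinetochore complex, and Cdc23 (-0.49 ± 0.186), of the anaphase-promoting complex, each with an adjusted p of 0.993. The 12 markers of granule cell precursors tested had a median of 0.03, with 0 past the unadjusted threshold. By contrast, of 5 tested genes of the trisomic segment with roles in DNA synthesis or chromatin, 4 were above 0 and 3 were below an unadjusted p of 0.05, against the same 4.08%, with none called. Gart, an enzyme of purine synthesis, was at 0.52 ± 0.134 and higher in Ts1Cje on 13 of 16 same-stage arrays (adjusted p = 0.838). Son, a splicing cofactor needed for cell division, was at 0.38 ± 0.109 and higher on 12 of 15. Chaf1b, a subunit of the histone chaperone that follows the fork, was at 0.29 ± 0.128 and higher on 8 of 14.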

How the data were processed

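Each deposited value is a log2 ratio, red (Cy5) to green (Cy3). The authors had read median pixel intensities in GenePix Pro, subtracted the background, dropped control, irregular and faint spots, and applied local LOWESS normalization in R. A missing value can therefore mean low signal, and the number of arrays limits the precision. Ratios were signed to Ts1Cje minus euploid. Of 25344 probes, 20626 had 1 symbol, and 257 control spots were left out. Probes of a gene were averaged.

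The ANOVA of the methods, with 7 parameters (euploid development at 3 later stages and the trisomy effect at 4 stages, no dye term), was fitted in limma 3.58.1 (R 4.3.3) to genes and unnamed probes with values on at least 14 arrays and at least 5 residual degrees of freedom, with moderated variances and Benjamini-Hochberg adjustment over 22225. A step in age is the mean over both genotypes. No term for sex was fitted. The scripts were tested on simulated data. Figures were made with matplotlib 3.10.9. Mice were individual animals, but litters were not used here, so p-values measure the spread between these samples.

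Always given were Mki67, Ccna2, Pcna, Cdk1, Ccnd1, Ccnd2, Mcm2, Top2a, Cdkn1b and Cdkn2c. Besides, the rule named for each contrast every called member and, per role, the 3 smallest unadjusted p below 0.05. Bub1, Cdc20 and Pttg1 fall under it. The members and lists were chosen with earlier results of these data known.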

Additional observations from a re-analysis of the deposited data

Results flagged for a closer look

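Values per array were screened for 27 named members in 127 groups of 4 arrays, and 10 values (7.87%) stood apart from the other 3 by Dixon's test, where chance flags about 1 in 20 groups. At P10, P10/P10 replicate 4 stood apart for Ccnd3 (-5.49), Tyms (-2.47) and Fen1 (1.07). At P7, P7/P7 replicate 2 stood apart for Mcm2 (0.43) and Bub1 (-1.27) and P7/P7 replicate 1 for Ccnd3 (0.43), and at P3, P3/P3 replicate 1 for Tyms (0.26). Among the cross-stage arrays, P10/P7 replicate 2 stood apart for Cdc20 (5.53), P0/P3 replicate 2 for Top2a (1.62) and P7/P3 replicate 2 for Plk1 (-0.22). The value of Plk1 was the smallest fall of its step, and those of Cdc20 and Ccnd3 are the largest of any flagged here.

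The change with age differed between the 3 steps for Ccnd1 (adjusted p = 0.0254), Ccnd2 (adjusted p = 0.0274) and Pcna (adjusted p = 0.0433). This test was added after the values were seen.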

How the results depend on the processing

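The count of members called for trisomy was 0 in every contrast under each alternative run, including each array left out in turn, and the medians of replication and mitotic members for trisomy moved by less than the spread between arrays. From P3 to P7, 2 members were called; this was 1 with ATJ arrays only and with arrays scaled to the same spread (Pcna then at -0.65), 0 with the conflicting euploid mouse taken as P3, 4 in ANOVA without moderated variances, 5 with array weights and 5 once the 3 arrays of fewest values were left out, and 1 to 3 with 1 array left out. At the other steps, ANOVA without moderated variances called 1 member from P0 to P3, 1 from P7 to P10, 1 from P0 to P10 and 1 in euploid mice from P0 to P10, a dye term per title prefix called 1 from P7 to P10 (Bub1 at -1.32, adjusted p = 0.0353), and leaving out the 3 arrays called 1 from P0 to P3, Ccnd2 (adjusted p = 0.0479). With 1 array left out these counts were 0 to 1 from P0 to P3 and from P0 to P10, in both cases 1 without P0/P3 replicate 1. For a difference between steps the 3 members called became 0 with ATJ arrays only, with the mouse taken as P3 and with scaled arrays, and 0 to 3 with 1 array left out (0 without P3/P0 replicate 1, P3/P0 replicate 2, P7/P3 replicate 1 or P3/P7 replicate 2, and 1, Ccnd1, without P3/P7 replicate 1 or P7/P10 replicate 2). The median of replication members from P0 to P10 was -0.57 to -0.32 with 1 array left out, and that of mitotic members -0.07 to 0.37.

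Signs turned only for changes that were not called. With trisomy, Cdkn1b was at -0.01 with a dye term, -0.05 with array weights and -0.05 on the 16 same-stage arrays (-0.08 to 0.12 with 1 array left out), Ccnd1 at 0.07 and Mcm2 at -0.02 on ATJ arrays, Ccnd2 at 0.01 with array weights, and Ccnd3 at P10 at 0.07 without the 3 arrays (-1.51 to 0.07 with 1 left out). From P0 to P10, Mki67 was at -0.05 with the mouse taken as P3 and -0.07 with scaled arrays (-0.13 to 0.32), Top2a at -0.09 with scaled arrays, -0.22 with array weights and -0.15 without the 3 arrays (-0.23 to 0.29), and Cdkn2c at -0.11 with a dye term per prefix (-0.55 to 0.33). With 1 array left out, Ccna2 ran from -0.30 to 0.57 and Cdkn1b from -0.42 to 0.97. The cause was not tested in any of these.

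No paired analysis was possible because the replicate numbers were given in accession order and each array already sets 1 mouse of either genotype against the other. The 2 probes of Tyms had the same sign on 15 of 26 arrays, those of Cdk2 on 11 of 21 and those of Cdk6 on 19 of 23, so the first 2 genes are poorly measured. Missing values removed up to 12 arrays per member, and Mcm5 had the widest error in every contrast but P0 to P3, where Mcm3 had it.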
